A study of Mus musculus with 16 samples.

Results

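Loss of Fuz and Gpr161 together was examined in the Head by setting the 2 Head libraries of the Fuz;Gpr161 double knockout, written DKO from here on, against the 2 Head libraries of wild type (WT). These are 4 of the 16 RNA sequencing libraries of the series, and the results cover the 20555 autosomal genes among the 21284 genes that passed the filter on low counts. All embryos were mice at E10.5, and Head is the part in front of the third branchial arches. The same series holds Head libraries of Fuz KO and of Gpr161 KO and Tail libraries of all 4 genotypes, with 2 libraries in each group. The labels give the genotype and no treatment, and they name no strain, allele, litter or number of embryos in a library. The p-values therefore measure the spread between libraries, and the labels do not say whether it is biological or technical. In each region the 2 Gpr161 KO libraries differed in sex and so came from different embryos. DKO 1 and DKO 2 differed alike in both regions in hypoxia and glycolysis genes. The median log2 differences of these genes from the Head WT mean were 2.29 and 0.45 in Head and 1.98 and 0.42 in Tail. The source of this difference was not tested.

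Fuz is an effector of planar cell polarity that works with the CPLANE proteins to bring intraflagellar transport into the growing primary cilium. Gpr161 is a G-protein-coupled receptor of the cilium that raises cyclic AMP and protein kinase A activity, which favours the repressor form of the Gli transcription factors and so holds Hedgehog signalling back. Sonic hedgehog from the notochord and floor plate patterns the ventral neural tube, and Hedgehog signals also act on the forebrain, the eye and the facial mesenchyme. Embryos that lack Fuz alone make too few or faulty cilia, while loss of Gpr161 alone is known for raised Hedgehog output.

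In the Head DKO, 7 of the 20555 autosomal genes passed at an adjusted p under 0.05 by edgeR's quasi-likelihood test, which is 0.0341% of those tested, with 1 higher (0.00486%) and 6 lower (0.0292%). They were Gpr161 itself, the forkhead gene Foxl1, H2-Bl, a polymorphic pseudogene of the major histocompatibility complex, and 4 processed pseudogenes, Rpl34-ps1, Gm9825, Atp6v0c-ps2 and Gm11942. An unadjusted p under 0.05 was reached by 876 genes (4.26%), 393 higher (1.91%) and 483 lower (2.35%). In 40.2% of the genes the 2 DKO libraries did not overlap with the 2 WT libraries, with 21.2% above and 19% below both. The counts of list members given below are to be read beside these shares. DESeq2, another count model, called 50 genes, 7 higher and 43 lower, and all 7 genes above were among them.

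The pseudogenes come first because their letters bear on how their values can be read. Rpl34-ps1, Gm9825 and Atp6v0c-ps2 all lie on chromosome 6, and each is nearly identical to the coding sequence of a gene elsewhere. In the GRCm38 annotation Rpl34-ps1 is a single processed pseudogene of 354 bases that matches 99.435% of the coding sequence of Rpl34, a ribosomal protein gene on chromosome 3, with 2 mismatches. Gm9825 matches Rnps1, an RNA-binding splicing factor gene on chromosome 17, over 843 bases with 5 mismatches. Atp6v0c-ps2 matches Atp6v0c, a subunit of the vacuolar proton pump, over 465 bases with 1 mismatch. The stretches below show 90 bases of each pseudogene above the stretch of the gene it matches, with mismatched bases in capitals. They lie at chr6:71124652-71124741 on the plus strand for Rpl34-ps1, chr6:7983124-7983213 on the minus strand for Gm9825 and chr6:37806107-37806196 on the plus strand for Atp6v0c-ps2, in GRCm38.
Rpl34-ps1: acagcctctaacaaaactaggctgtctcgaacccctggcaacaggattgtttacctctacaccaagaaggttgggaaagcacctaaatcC
Rpl34: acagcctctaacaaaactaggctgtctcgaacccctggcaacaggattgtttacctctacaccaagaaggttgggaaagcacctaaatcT
Gm9825: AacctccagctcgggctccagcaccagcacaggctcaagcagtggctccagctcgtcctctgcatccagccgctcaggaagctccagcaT
Rnps1: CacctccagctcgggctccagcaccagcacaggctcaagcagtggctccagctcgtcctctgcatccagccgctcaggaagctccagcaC
Atp6v0c-ps2: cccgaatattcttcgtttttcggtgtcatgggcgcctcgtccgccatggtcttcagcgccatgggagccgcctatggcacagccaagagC
Atp6v0c: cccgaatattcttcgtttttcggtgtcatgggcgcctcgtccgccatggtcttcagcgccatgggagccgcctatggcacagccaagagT
Of the windows of 50 bases within Rpl34-ps1, 100% also occur in the annotated transcripts of other genes, against 72.17% for Gm9825 and 90.14% for Atp6v0c-ps2. A read from such a window cannot be given to the pseudogene from its letters alone, so these 3 values are uncertain. The windows were sought in all other genes on either strand, so the gene that shares a window need not be the match shown.

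Rpl34-ps1 was counted at 33.3 and 36.1 CPM (counts divided by the library's total after TMM scaling) in the WT libraries and at 1.96 and 2.53 CPM in the DKO libraries. It fell, with a log2 difference of -3.95 ± 0.25 (standard error, SE) and an adjusted p of 2.04e-05. The Head Gpr161 KO libraries, at 1.77 and 1.21 CPM, were as low as the DKO, and the Fuz KO libraries had 54.4 and 39.6 CPM. Gm9825 was at 19.8 and 19.3 CPM in WT and 0.848 and 1.07 CPM in DKO (log2 -4.35 ± 0.31 SE, adjusted p = 3.24e-05), and Atp6v0c-ps2 was at 10.9 and 8.99 CPM against 0.471 and 0.521 CPM (log2 -4.32 ± 0.41 SE, adjusted p = 0.000582). Both were low in the DKO libraries and in no other Head group, since the Gpr161 KO libraries had 40.7 and 22.5 CPM of Gm9825 and 21.0 and 12.3 CPM of Atp6v0c-ps2. The pseudogenes were low in the Tail DKO as well. Tail WT against Tail DKO was 43.7 and 37.5 against 2.17 and 2.74 CPM for Rpl34-ps1. It was 20.9 and 21.3 against 0.854 and 0.979 CPM for Gm9825, and 9.81 and 9.54 against 0.208 and 0.333 CPM for Atp6v0c-ps2. The genes that these pseudogenes match were higher in both Head DKO libraries and did not pass. Rpl34 was at 324 and 350 CPM in WT and 556 and 546 CPM in DKO (log2 0.71 ± 0.21 SE, adjusted p = 0.957), Rnps1 was at 175 and 163 against 238 and 246 CPM, and Atp6v0c was at 46.3 and 42.7 against 60.2 and 62.7 CPM. Summed with its match, Atp6v0c-ps2 came to 57.2 and 51.7 CPM in WT and 60.7 and 63.3 CPM in DKO, and Gm9825 to 195 and 183 against 239 and 247 CPM. Rpl34-ps1 with Rpl34 came to 358 and 386 CPM in WT and 558 and 549 CPM in DKO, so this sum was the farthest from WT.

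The single gene that rose was Gm11942, a processed pseudogene of chromosome 4, at 0.471 and 0.469 CPM in WT and 9.94 and 8.78 CPM in DKO (log2 4.31 ± 0.38 SE, adjusted p = 0.000307). The Fuz KO libraries had 16.5 and 10.9 CPM, and those of Gpr161 KO 0.271 and 0.419 CPM. In the Tail this pseudogene was at 0.527 and 0.457 CPM in WT and 12.4 and 11.5 CPM in DKO. Its closest match is Gm10073, with 97.681% identity, and 30.41% of its 50-base windows are shared with other genes of any kind. H2-Bl, on chromosome 17, was at 2.62 and 2.96 CPM in WT and 0.542 and 0.379 CPM in DKO (log2 -2.59 ± 0.39 SE, adjusted p = 0.0437). The other 4 Head mutant libraries had 2.27 to 2.74 CPM of H2-Bl, so of the Head libraries those of DKO alone were low. In the Tail H2-Bl was at 2.63 and 2.58 CPM in WT and 0.462 and 0.333 CPM in DKO. Its closest relative, Gm8909, is 89.754% identical, and 11.75% of the windows of H2-Bl are shared with other genes of any kind. With any of the 4 WT and DKO libraries left out, H2-Bl no longer passed (adjusted p from 0.162 to 0.501).

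Gpr161 was at 55.0 and 53.97 CPM in WT and at 3.49 and 5.44 CPM in DKO. The groups lay far apart, and the gene fell (log2 -3.61 ± 0.38 SE, adjusted p = 0.00214). Fuz was at 6.82 and 7.84 CPM in WT against 1.22 and 1.89 CPM in DKO, below both WT libraries, but it did not pass (log2 -2.23 ± 0.38 SE, adjusted p = 0.0942). DESeq2 called it (adjusted p = 1.85e-06). Among the 20 tested genes nearest to Gpr161 on its chromosome, 0 passed by edgeR and 1 had an unadjusted p under 0.05. Of the 20 nearest to Fuz, 0 passed and 1 had an unadjusted p under 0.05. Without Head DKO 1, Gpr161 had an adjusted p of 0.113 (log2 -3.34) and the count of called genes was 4, all of them the pseudogenes.

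**Figure D1:**
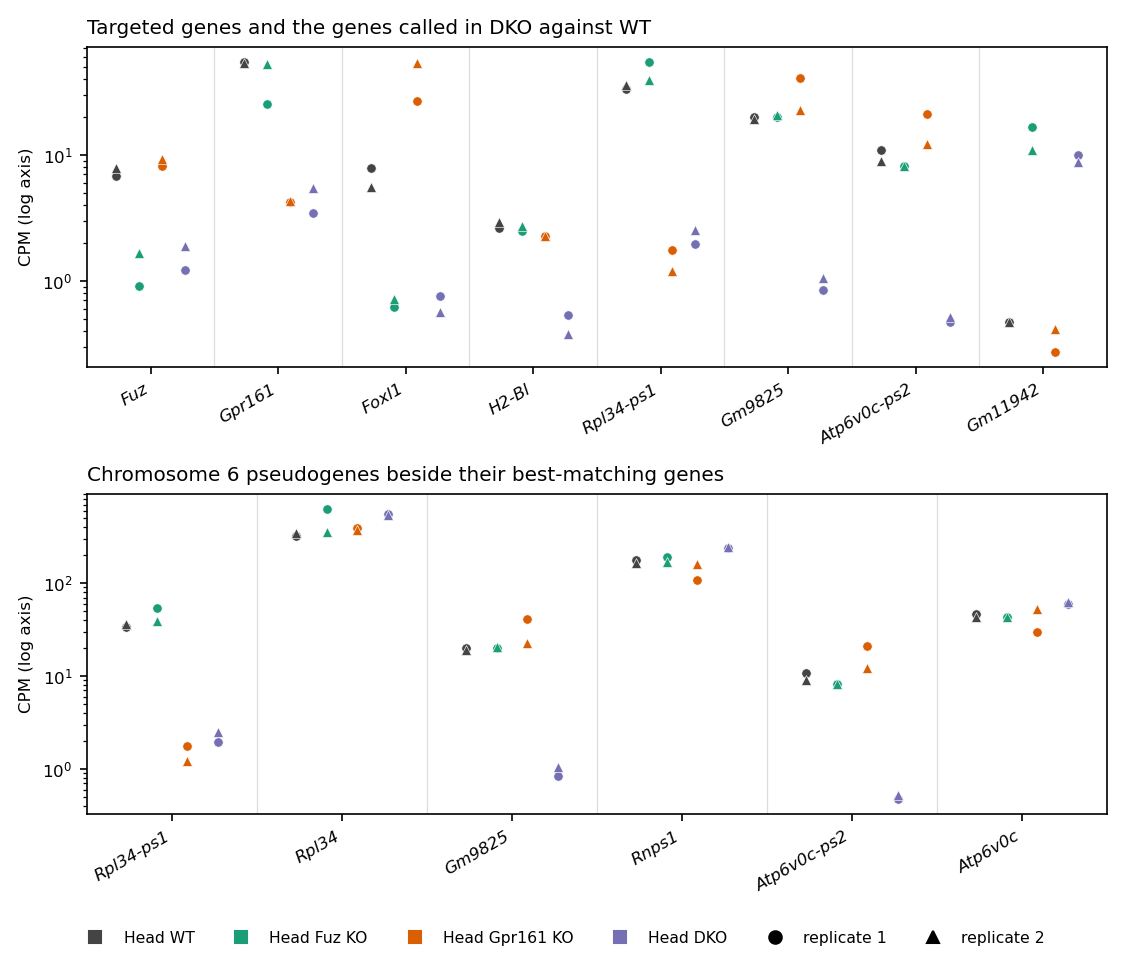
CPM on a log axis in the 8 Head libraries, coloured by genotype, with circles for replicate 1 and triangles for replicate 2. The upper panel shows the targeted genes Fuz and Gpr161 and the 6 other genes called in DKO against WT, with Gm9825, Atp6v0c-ps2 and H2-Bl low in the DKO libraries alone. The lower panel sets the 3 pseudogenes of chromosome 6 beside the genes they match, where Rpl34 lies at 556 and 546 CPM in DKO against 324 and 350 CPM in WT.

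The 16 libraries held 39062489 to 53680317 counts, with 43353989 and 39761331 for Head WT and 42516303 and 42434144 for Head DKO. Across genes, log2 CPM of the 2 libraries of a group correlated with r = 0.983 in Head WT and 0.980 in Head DKO. The 8 markers of Head tissue summed to 197 and 194 CPM in WT and 204 and 142 CPM in DKO, and the 8 markers of trunk and tail, at 1.77 to 2.28 CPM in these 4 libraries against 184 to 382 CPM in the Tail, were near absent. Both WT libraries carried Xist without Y-linked transcripts and both DKO libraries the reverse, so genotype and sex cannot be told apart here, and only autosomal genes are described. A term for sex rests on Gpr161 KO 1 against Gpr161 KO 2. In the Head these 2 libraries also differed in the 6 cardiomyocyte markers, which summed to 1402 and 294 CPM. The term takes in such differences along with sex, and the 2 cannot be told apart. With sex as a term, 5 genes passed. They were the 4 processed pseudogenes and Rnps1, the match of Gm9825 (log2 1.16 ± 0.15 SE, adjusted p = 0.0238), while Gpr161 (adjusted p = 0.0522), Foxl1 (log2 -2.47, adjusted p = 0.157) and H2-Bl (adjusted p = 0.112) did not.

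The 2 DKO libraries differed from each other in a set of stress genes. Of 34 tested genes of hypoxia and glycolysis, 31 lay above both WT libraries, and their median log2 difference from the WT mean was 2.29 in DKO 1 and 0.45 in DKO 2. Ldha, which turns pyruvate into lactate, was at 1429 and 1399 CPM in WT and 3510 and 2233 CPM in DKO, and Slc16a3, a lactate transporter, was at 98.6 and 96.0 against 621 and 212 CPM. Car9, a carbonic anhydrase of hypoxic cells, was at 0.449 and 0.868 against 9.68 and 1.09 CPM, and it was the only member with an unadjusted p under 0.05. The stress and immediate early genes had medians of 1.14 and 0.01 in the 2 DKO libraries, and the erythroid genes -1.57 and -0.40. None of the members of these 3 lists passed by edgeR. DKO 1 thus stood apart from DKO 2 in these lists, but high hypoxia and glycolysis medians were not limited to it. From the same WT mean they were 2.53 (Fuz KO 1), 0.13 (Fuz KO 2), 1.30 (Gpr161 KO 1) and 0.60 (Gpr161 KO 2). Tail DKO 1 and 2 lay at 1.98 and 0.42. The stress medians of these 6 libraries were, in the same order, 2.08, -0.01, 0.79, 1.01, 1.10 and 0.12. The erythroid median was -1.10 in Fuz KO 1 but 0.09 in Tail DKO 1. Without DKO 1 and Fuz KO 1 in both regions, 12 genes passed, 2 higher and 10 lower, and 3 of the 7 were among them (Gpr161, Rpl34-ps1 and Gm11942). That fit, like each with 1 library left out, holds a single library in a group, which is assumed to vary like the other groups.

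The Hedgehog pathway is described from its ligands to its targets. Shh, its ligand in the ventral midline, was at 27.1 and 31.5 CPM in WT and at 6.93 and 7.53 CPM in DKO. Both DKO libraries were well below WT, at log2 -2.02 ± 0.32 SE, but Shh did not pass (adjusted p = 0.0708). DESeq2 called it (adjusted p = 3.82e-07), and without DKO 1 and Fuz KO 1 it was at log2 -1.99 ± 0.29 SE (adjusted p = 0.149). Of the 8 tested genes of Hedgehog ligands and release, 0 passed by edgeR, 1 had an unadjusted p under 0.05 and the median was -0.16, where the median of all autosomal genes was 0.00369. Scube2 and Scube3, which help release the ligand from cells, were at log2 1.11 ± 0.57 SE and -0.40 ± 0.19 SE.

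At reception, the receptor gene Ptch1 was at 136 and 162 CPM in WT and 199 and 119 CPM in DKO. The groups overlapped (log2 0.10 ± 0.26 SE, adjusted p = 0.976), and without DKO 1 the difference was -0.34 on the log2 scale. Hhip, which binds and sequesters the ligand, had 10.6 and 11.4 CPM in WT and 11.4 and 5.68 CPM in DKO. Gas1, a co-receptor gene that the pathway lowers, was at 195 and 175 CPM in WT and 121 and 122 CPM in DKO (log2 -0.61 ± 0.16 SE, adjusted p = 0.8). The transducer Smo was level, at 249 and 248 CPM in WT and 240 and 251 CPM in DKO. Over the 30 tested genes of reception and transduction, 0 rose and 1 fell, which was Gpr161, 3 were lower at an unadjusted p under 0.05, and the median was 0.05.

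Of the Gli transcription factors, Gli1, which is also a direct target, was at 36.4 and 43.7 CPM in WT and 24.9 and 20.3 CPM in DKO. The 2 groups did not overlap, but Gli1 did not pass (log2 -0.83 ± 0.18 SE, adjusted p = 0.414), while DESeq2 called it (adjusted p = 0.0196). Gli2 was at 59.8 and 55.3 against 73.5 and 58.9 CPM, and Gli3, the main source of the repressor, at 143 and 127 against 177 and 143 CPM. Both lay near or above WT. Protein kinase A's catalytic subunit gene Prkaca was at 109 and 100 CPM in WT and 85.0 and 90.2 CPM in DKO (log2 -0.25 ± 0.12 SE, adjusted p = 0.957).

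Among the direct targets the forkhead genes lay lowest. Foxl1, expressed in mesenchyme that receives Hedgehog signals, was at 7.87 and 5.58 CPM in WT and 0.754 and 0.568 CPM in DKO. Foxl1 fell (log2 -3.34 ± 0.42 SE, adjusted p = 0.00972), the only fall in a protein-coding gene other than Gpr161. This call was lost without Head WT 1 (adjusted p = 0.0832), Head DKO 1 (0.192) or Head DKO 2 (0.374). Foxf2, which acts in facial and palatal mesenchyme, was at 20.7 and 18.1 against 3.96 and 6.15 CPM (log2 -1.94 ± 0.34 SE, adjusted p = 0.112), and its paralogue Foxf1 at 10.1 and 13.1 against 3.86 and 6.79 CPM (log2 -1.12 ± 0.50 SE, adjusted p = 0.957). Of the 20 targets, 0 rose and 1 fell, 1 was higher and 6 were lower at an unadjusted p under 0.05, and 11 lay below both WT libraries. Their median was -0.60, with -0.34 in DKO 1 and -0.60 in DKO 2. The Gli site GACCACCCA or its reverse complement TGGGTGGTC occurs in 83 of 32851 RefSeq promoters of 300 bases (0.253%). RefSeq promoters were matched for 11 of the 20 targets, and 0 of their 14 promoters hold these letters. At a share of 0.253%, 0 is the usual outcome for any 14 promoters, so the search cannot tell whether these targets lack Gli sites. The promoters of Foxl1 and Gli1 were not searched.

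**Figure D2:**
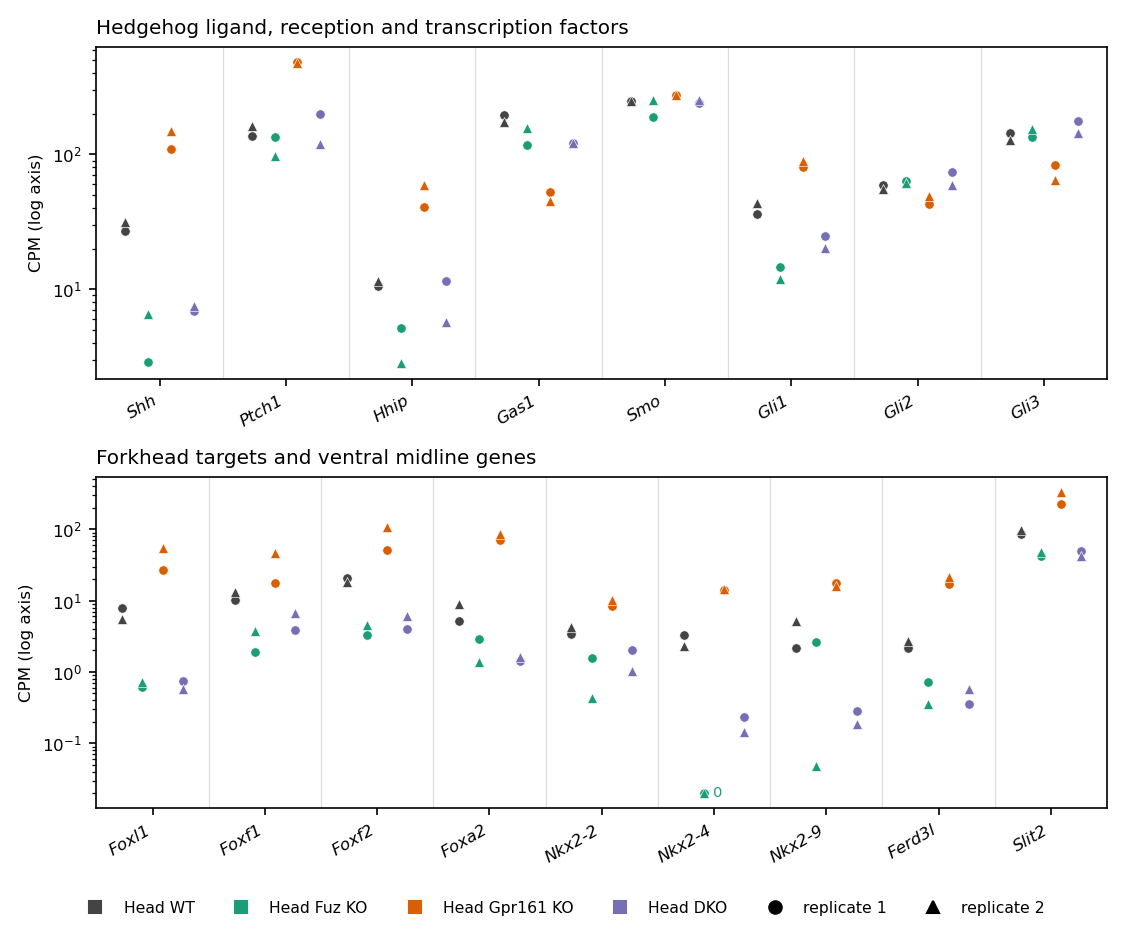
CPM on a log axis in the 8 Head libraries for Hedgehog ligand, reception and Gli genes (upper panel) and for forkhead targets and ventral midline genes (lower panel), coloured by genotype, with circles for replicate 1 and triangles for replicate 2. Shh lies at 6.93 and 7.53 CPM in DKO against 27.1 and 31.5 CPM in WT, while Ptch1 in DKO spans the WT libraries, and Nkx2-4 in Fuz KO, marked 0, had no counts.

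The floor plate is the signalling centre at the ventral midline of the neural tube. Of its 15 tested genes, 0 passed by edgeR, 8 were lower and 0 higher at an unadjusted p under 0.05, and 13 lay below both WT libraries. The median was -1.001, with -0.89 in DKO 1 and -1.03 in DKO 2, so the libraries were alike in it. Foxa2, the transcription factor that specifies the floor plate, was at 5.20 and 8.92 CPM in WT and 1.41 and 1.61 CPM in DKO (log2 -2.22 ± 0.38 SE, adjusted p = 0.0942). Ferd3l, a basic helix-loop-helix factor of the midbrain floor plate, was at 2.15 and 2.699 against 0.353 and 0.568 CPM (log2 -2.39 ± 0.49 SE, adjusted p = 0.239). The secreted axon repellent Slit2 was at 86.3 and 98.8 CPM in WT and 49.9 and 42.5 CPM in DKO (log2 -1.001 ± 0.25 SE, adjusted p = 0.738), and the transcription factor Sim1 at 5.25 and 4.74 against 2.31 and 2.41 CPM. DESeq2 called Foxa2, Ferd3l and Slit2. In tissue of this kind, fewer cells of a type and less RNA in each cell cannot be told apart.

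Among progenitors beside the floor plate, single genes were low. Nkx2-9, a homeobox gene of the ventralmost progenitors, was at 2.18 and 5.19 CPM in WT and 0.283 and 0.189 CPM in DKO (log2 -3.95 ± 1.09 SE, adjusted p = 0.948), and Nkx2-2, another homeobox gene of ventral progenitors, at 3.41 and 4.25 against 2.00 and 1.04 CPM. Across the 24 tested ventral progenitor and neuron genes the median was -0.27, with 2 lower and 0 higher at an unadjusted p under 0.05 and 0 called by edgeR. Nkx2-4, a gene of the hypothalamus, was at 3.34 and 2.35 CPM in WT and 0.236 and 0.142 CPM in DKO (log2 -3.89 ± 0.58 SE, adjusted p = 0.0942), and it passed when the Head libraries were fitted alone. The other ventral forebrain genes were spread around WT, with a list median of -0.05 over 24 genes.

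Dorsal neural tube genes lay mostly below WT and intermediate ones had a median above it, while Pax3 and Pax6 were close to WT. Pax3 and Pax7, which mark dorsal progenitors, were at 38.9 and 34.7 against 36.8 and 36.4 CPM and at 21.1 and 20.7 against 16.5 and 13.9 CPM. Pax3 did not differ beyond the spread of the libraries (log2 -0.01 ± 0.15 SE), while both DKO libraries lay below both WT libraries in Pax7. Of the 26 dorsal and roof plate genes, 0 passed, 3 were lower and 0 higher at an unadjusted p under 0.05, 17 lay below both WT libraries and the median was -0.32. Those 3 were the Wnt agonist Rspo1 (log2 -0.79 ± 0.22 SE), the ligand gene Bmp7 (log2 -0.77 ± 0.17 SE) and Draxin, an axon guidance gene (log2 -0.67 ± 0.27 SE). Pax6, which specifies the eye and intermediate neural tube, was at 74.2 and 72.3 CPM in WT and 88.8 and 71.9 CPM in DKO (log2 0.13 ± 0.35 SE). The 13 intermediate genes had a median of 0.38, with Irx5 (log2 0.70 ± 0.27 SE) and the zinc finger gene Sp8 (log2 0.49 ± 0.22 SE) higher at an unadjusted p under 0.05 and 0 called.

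Along the length of the brain the 2 ends differed in direction. Of 34 tested forebrain, eye and cortex genes, 10 were lower and 1 higher at an unadjusted p under 0.05, 21 lay below both WT libraries and the median was -0.74. The median was lower in DKO 2 (-1.25) than in DKO 1 (-0.67), and 0 members passed by edgeR. It was below WT in the single knockouts too, at -1.58 and -0.23 in Head Fuz KO and -0.88 and -1.22 in Head Gpr161 KO. Dmrt3, a transcription factor of the medial cortex, was at 5.97 and 6.48 CPM in WT and 1.08 and 0.639 CPM in DKO (log2 -2.85 ± 0.45 SE, adjusted p = 0.0607). Eomes, a marker of early cortical neurons and their intermediate progenitors, was at 8.95 and 6.66 against 0.353 and 0.284 CPM, and Tbr1, which acts after it, at 3.18 and 2.32 against 0.188 and 0.237 CPM. The cortical homeobox genes followed, with Emx1 at 10.8 and 7.46 against 2.31 and 2.82 CPM and Emx2 at 27.9 and 27.7 against 8.53 and 8.59 CPM. In each of these genes both DKO libraries lay below the lower WT value, and DESeq2 called Dmrt3, Eomes, Tbr1 and Emx1. With DKO 2 as the only Head DKO library (without DKO 1 and Fuz KO 1), Eomes (adjusted p = 0.045) and Emx2 (log2 -1.72 ± 0.20 SE, adjusted p = 0.0143) were called, with the spread taken from the other groups.

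Midbrain and hindbrain genes lay higher. Pax5, a transcription factor of the boundary between midbrain and hindbrain, was at 9.11 and 15.4 CPM in WT and 55.4 and 40.6 CPM in DKO (log2 1.97 ± 0.53 SE, adjusted p = 0.869), and DESeq2 called it (adjusted p = 0.0453). En2, another homeobox gene of this boundary, was at 31.5 and 36.5 against 94.1 and 75.7 CPM (log2 1.32 ± 0.41 SE, adjusted p = 0.957), and Cnpy1, an FGF signalling regulator there, at 23.9 and 37.0 against 81.0 and 61.5 CPM. Fgf8, the secreted signal of the boundary, was at 13.5 and 16.3 CPM in WT and 27.2 and 24.1 CPM in DKO (log2 0.79 ± 0.31 SE, adjusted p = 0.957). Of the 24 tested genes, 0 passed, 5 were higher and 0 lower at an unadjusted p under 0.05, 13 lay above both WT libraries and the median was 0.34 (0.47 in DKO 1 and 0.20 in DKO 2). The Head Fuz KO libraries lay higher as well, with medians of 1.08 and 0.10 and En2 at 98.4 and 72.5 CPM. Those of Head Gpr161 KO had medians of 0.03 and -0.02.

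Pigment genes, which at this stage mark the retinal pigment epithelium and the first melanoblasts, had the lowest median of the 38 lists, -2.52 over 13 tested genes. Of these, 7 were lower and 0 higher at an unadjusted p under 0.05, and 10 lay below both WT libraries. The list was low in both single knockouts as well. Its median difference from the Head WT mean was -2.91 and -1.51 in the Head Fuz KO libraries and -3.55 and -3.48 in those of Gpr161 KO. Pmel, the scaffold protein of melanosomes, was at 9.80 and 8.80 CPM in WT and 0.730 and 0.899 CPM in DKO (log2 -3.51 ± 0.62 SE, adjusted p = 0.113). Dct, an enzyme of melanin synthesis, was at 4.31 and 4.32 against 0.259 and 0.473 CPM, and the ion channel gene Trpm1 at 19.2 and 17.0 against 1.65 and 4.05 CPM. None passed by edgeR, and DESeq2 called Pmel (adjusted p = 7.73e-06). Aldh1a1, a retinoic acid synthesis enzyme of the dorsal retina, was at 16.6 and 15.5 CPM in WT and 0.848 and 0.379 CPM in DKO (log2 -4.70 ± 0.75 SE, adjusted p = 0.0708). It was at 0.312 and 1.09 CPM in Head Fuz KO and 1.92 and 1.44 CPM in Head Gpr161 KO. Without DKO 1 and Fuz KO 1 it was called (log2 -5.42 ± 0.58 SE, adjusted p = 0.0104), which rests on DKO 2 alone and the spread of the other groups. Neural crest and glia genes had a median of 0.02 over 17 genes.

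**Figure D3:**
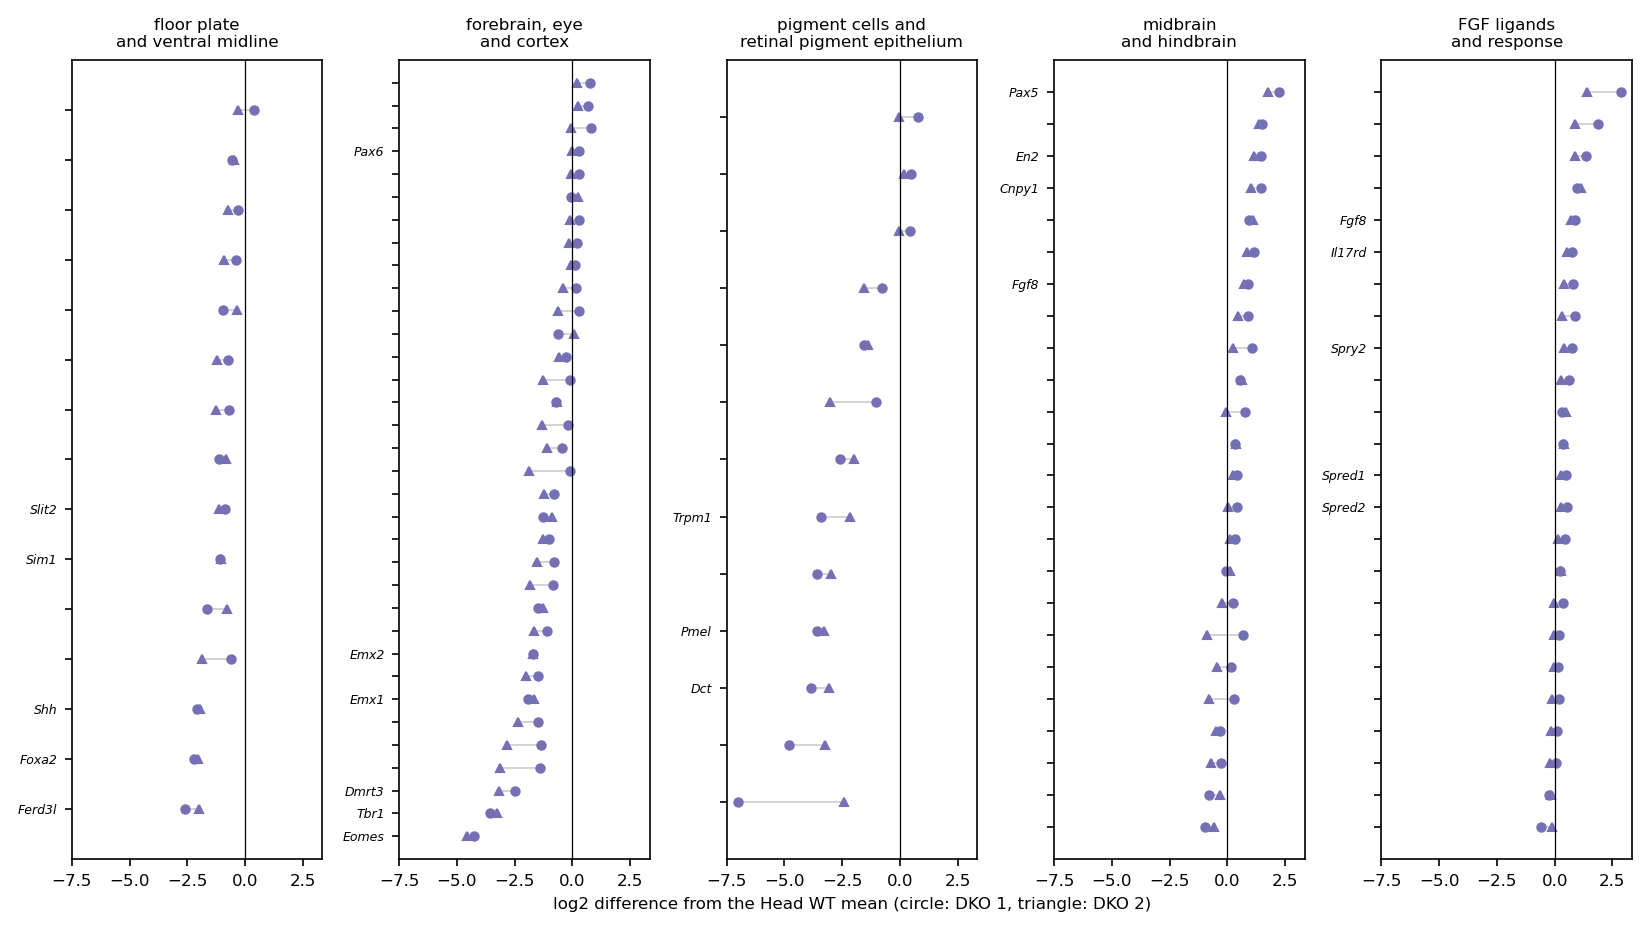
Difference of each DKO library from the mean of the 2 Head WT libraries, in log2 CPM with a prior count of 2, for every tested member of 5 lists (floor plate, forebrain, pigment, midbrain and hindbrain, FGF). Circles are DKO 1 and triangles DKO 2, and genes described in the text carry their names. Floor plate, forebrain and pigment genes lie mostly left of 0 and midbrain, hindbrain and FGF genes mostly right of it, and none of these members was called by edgeR.

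Of the signalling lists, FGF stood highest. Among 24 tested FGF ligands and response genes, 9 were higher and 0 lower at an unadjusted p under 0.05, 16 lay above both WT libraries, and the median was 0.39 (0.46 in DKO 1 and 0.29 in DKO 2), with 0 called by edgeR. Il17rd, a feedback inhibitor of FGF signalling, was at 97.0 and 106 CPM in WT and 171 and 145 CPM in DKO (log2 0.64 ± 0.13 SE, adjusted p = 0.281), and DESeq2 called it (adjusted p = 0.0308). The feedback genes Spred1 (103 and 105 against 146 and 127 CPM), Spred2 (51.0 and 45.7 against 69.0 and 57.5 CPM) and Spry2 (24.4 and 22.7 against 39.7 and 31.1 CPM) were above both WT libraries as well. The list shares Fgf8 with the midbrain and hindbrain list, so the 2 are not independent. Its medians were 0.21 and 0.17 in Head Fuz KO and 0.10 and -0.16 in Head Gpr161 KO.

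Tgfb2, a TGF-beta ligand, was at 25.1 and 24.6 CPM in WT and 10.7 and 11.1 CPM in DKO, with little spread in either group. It was at log2 -1.19 ± 0.22 SE (adjusted p = 0.143), and was called without DKO 1 and Fuz KO 1 (log2 -1.20 ± 0.15 SE, adjusted p = 0.0238), a fit with DKO 2 alone and the spread of the other groups. The 30 tested BMP and TGF-beta genes had a median of -0.08 with 0 called. Wnt feedback and ligand genes had a median of -0.01 over 32 genes, with 0 called and 1 higher and 5 lower at an unadjusted p under 0.05. Of these genes 6 lay above and 12 below both WT libraries, beside 21.2% and 19% of all autosomal genes. Wnt8b, a Wnt ligand of the cortical hem, was at 20.7 and 26.9 against 8.32 and 4.59 CPM, and Wnt7a at 11.8 and 13.8 against 22.8 and 18.2 CPM. Of the 18 retinoic acid genes 3 were lower and 0 higher at an unadjusted p under 0.05, which were Aldh1a1, Aldh1a2 and the retinol transporter gene Stra6.

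The cilium and polarity lists had medians near WT, though single members lay farther off. Of 36 tested genes of CPLANE and intraflagellar transport, 0 passed, the only member with an unadjusted p under 0.05 was Fuz, and the median was 0.01. The transport subunit Ift88 was at 24.4 and 22.5 CPM in WT and 30.04 and 24.9 CPM in DKO (log2 0.23 ± 0.16 SE), and Tulp3, which carries Gpr161 into the cilium, at 49.4 and 41.5 against 53.5 and 51.1 CPM. The transition zone, BBSome and ciliary membrane genes had a median of 0.07 over 30 genes, and planar cell polarity genes 0.02 over 24, with 0 called and 0 at an unadjusted p under 0.05 in either list.

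In the facial mesenchyme and branchial arches, 48 tested genes had a median of -0.10, with 3 higher and 6 lower at an unadjusted p under 0.05 and 0 called. Besides Foxf2 and Foxf1, Tfap2b, a neural crest transcription factor, was at 74.4 and 65.1 CPM in WT and 46.8 and 42.7 CPM in DKO, and Ednra, the endothelin receptor of arch mesenchyme, at 35.8 and 35.9 against 22.6 and 27.8 CPM. Its ligand gene Edn1 was at 0.942 and 1.48 against 5.25 and 1.87 CPM. Of 32 extracellular matrix genes, 18 lay below both WT libraries and 0 above (median -0.24), among them the collagen gene Col5a2 at 153 and 165 CPM in WT and 76.9 and 102 CPM in DKO (log2 -0.83 ± 0.18 SE, adjusted p = 0.32). In the otic and placode list Oc90, an otolith protein gene, was at 11.9 and 7.23 against 1.77 and 3.83 CPM, and with sex as a term its log2 difference was 1.14 ± 1.30 SE, in the other direction.

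The p53 target genes Ccng1 (56.1 and 56.8 against 98.9 and 82.5 CPM), Zmat3 (31.5 and 35.4 against 53.99 and 45.2 CPM) and the cell cycle inhibitor Cdkn1a (12.2 and 10.3 against 29.4 and 19.4 CPM) were higher at an unadjusted p under 0.05. Of the 22 tested p53 targets 8 lay above both WT libraries and 1 below, beside 21.2% and 19% of all autosomal genes. By edgeR 0 of these targets passed, and the list median was 0.09. Cell cycle genes had a median of 0.02 over 28. Cardiomyocyte genes had a median of 1.12 in DKO 1 and 0.00 in DKO 2, with 0 of 26 called. The 6 defining cardiomyocyte markers summed to 6.71 and 5.70 CPM in WT and 24.8 and 6.11 CPM in DKO, with Nppa at 0 in all 4 libraries, and their part in the other results was not tested. The 5 macrophage markers summed to 38.9 and 22.4 against 11.4 and 22.8 CPM, and liver markers to at most 0.718 CPM.

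**Figure D4:**
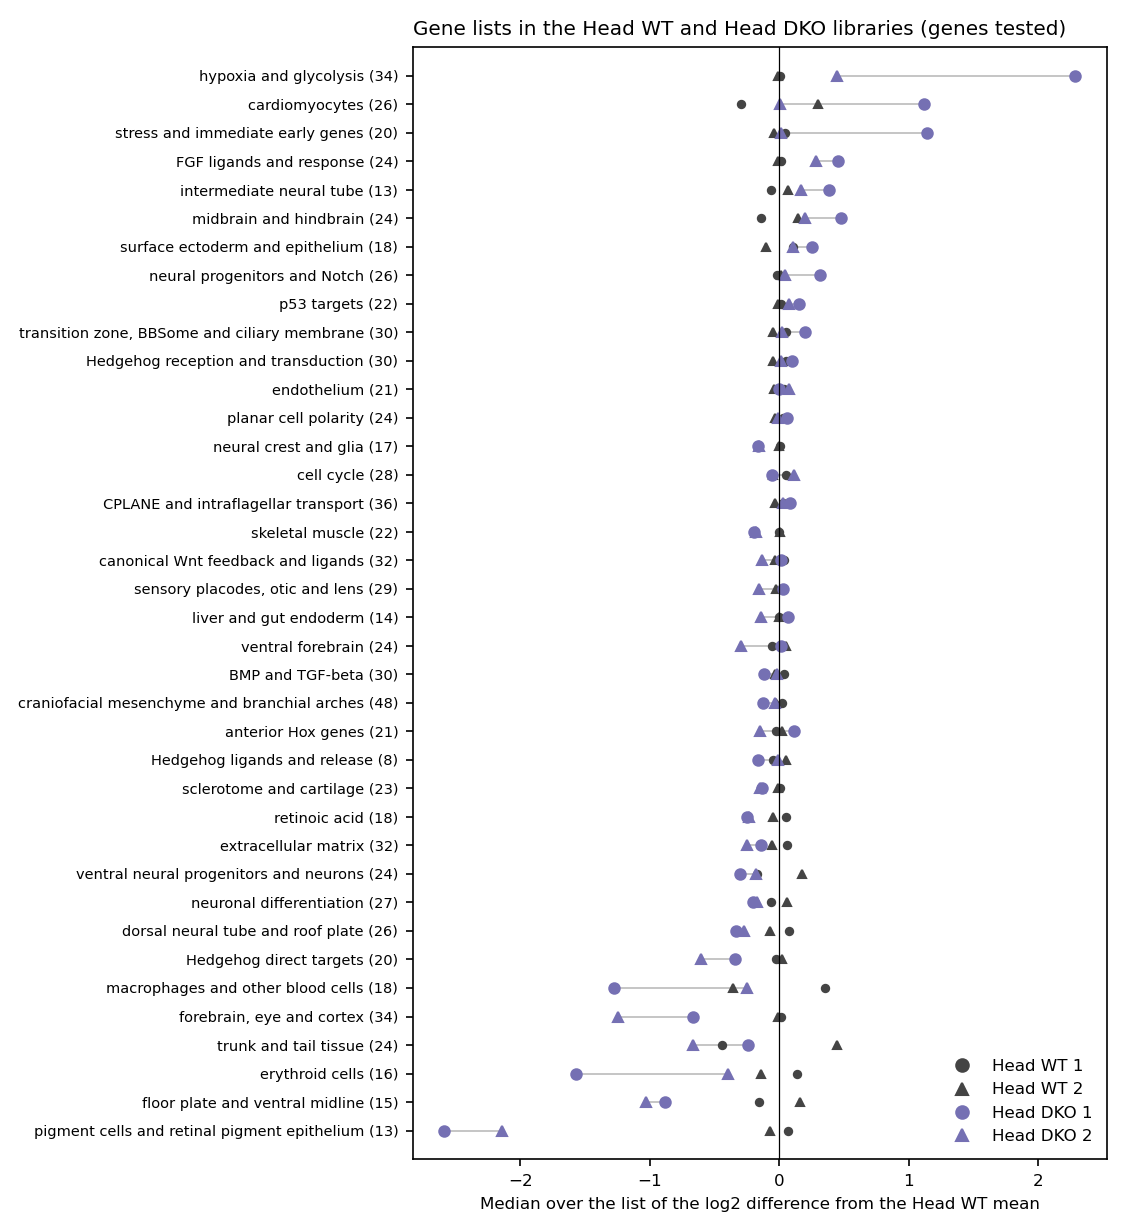
Median over each of the 38 gene lists of the log2 difference from the Head WT mean, in each WT library (grey) and DKO library (purple), with the number of genes tested in brackets and circles for replicate 1. Pigment genes lie lowest of the lists in both DKO libraries, at -2.59 and -2.14, and the hypoxia and glycolysis genes lie at 2.29 in DKO 1 and 0.45 in DKO 2.

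The DKO was next set against each single knockout, and these comparisons share its 2 libraries with the one above. Against Head Fuz KO few genes passed. Of the autosomal genes 6 passed (0.0292%), 1 higher (0.00486%) and 5 lower (0.0243%). An unadjusted p under 0.05 was reached by 601 (2.92%). Gpr161, at 25.4 and 52.5 CPM in Fuz KO, fell (log2 -3.12 ± 0.37 SE, adjusted p = 0.00826). The processed pseudogenes Rpl34-ps1, Gm9825, Atp6v0c-ps2 and Gm6969 fell, and AI506816, annotated as a processed transcript, rose. Gm6969 was at 19.9 and 18.5 CPM in Fuz KO and 0.165 and 0.189 CPM in DKO, and AI506816 at 36.3 and 37.5 against 75.1 and 86.8 CPM. Foxl1 was level, at 0.623 and 0.714 CPM in Fuz KO (log2 -0.02 ± 0.44 SE). Gli1 was higher in both DKO libraries than in Fuz KO, which had 14.6 and 11.9 CPM, and Shh was at 2.86 and 6.59 CPM in Fuz KO, below both DKO libraries, but neither passed (Gli1 log2 0.77 ± 0.19 SE and Shh log2 0.61, adjusted p = 1 for both). Hedgehog targets had a median of 0.30 and floor plate genes one of 0.04, beside -0.01 over all autosomal genes. By edgeR 0 of these 20 and 15 genes passed, and 3 and 1 were higher at an unadjusted p under 0.05. The count over all genes was 403 without Head Fuz KO 2 and 3 without Head DKO 1 or without Head DKO 2.

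Set against Head Gpr161 KO, 858 autosomal genes passed (4.17%), 205 higher (0.997%) and 653 lower (3.18%) in the DKO, while at an unadjusted p under 0.05 the shares were 7.21% and 10.6%. Of the 20 Hedgehog targets, 0 rose and 10 fell, with a median of -1.63, beside 0.0123 over all autosomal genes. Gli1 was at 80.3 and 88.9 CPM in Gpr161 KO and fell (log2 -1.91 ± 0.19 SE, adjusted p = 0.00014), and Ptch1, at 484 and 479 CPM there, fell (log2 -1.597 ± 0.26 SE, adjusted p = 0.00566). Hhip, at 40.8 and 58.8 CPM, fell (log2 -2.54 ± 0.35 SE, adjusted p = 0.00168), and Foxl1, at 26.7 and 53.8 CPM, fell (log2 -5.92 ± 0.46 SE, adjusted p = 2.38e-05). Of the 15 floor plate genes, 12 fell and 0 rose, with a median of -2.63. Shh was at 109 and 149 CPM in Gpr161 KO (log2 -4.16 ± 0.35 SE, adjusted p = 6.87e-05), and Foxa2 at 71.1 and 86.0 CPM (log2 -5.70 ± 0.43 SE, adjusted p = 1.97e-05). Gpr161 itself was level (log2 0.07 ± 0.36 SE), and Fuz fell (log2 -2.47 ± 0.39 SE, adjusted p = 0.00373).

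Dorsal and intermediate neural tube genes went the other way. Of the 26 dorsal genes 9 rose and 1 fell, and of the 13 intermediate genes 5 rose and 0 fell (median 3.56). Pax6, at 2.69 and 4.72 CPM in Gpr161 KO, rose (log2 4.44 ± 0.42 SE, adjusted p = 0.000232), as did Sp8 (log2 3.34 ± 0.24 SE, adjusted p = 1.71e-05) and Pax3, at 5.71 and 6.26 CPM there (log2 2.61 ± 0.17 SE, adjusted p = 6.08e-06). Gas1 rose (log2 1.31 ± 0.17 SE, adjusted p = 0.000885), and so did Gli3 (log2 1.11 ± 0.15 SE, adjusted p = 0.00161). Gsx2, a homeobox gene of the lateral ganglionic eminence, was near absent in Gpr161 KO, at 0.0493 and 0.0465 CPM, and at 3.56 and 0.947 CPM in DKO. FGF genes had 7 risen and 0 fallen of 24, with Il17rd at log2 1.48 ± 0.14 SE (adjusted p = 0.000109), and midbrain and hindbrain genes 6 risen and 0 fallen of 24, with En2 at log2 2.42 ± 0.43 SE (adjusted p = 0.00936).

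Heart muscle, matrix and some blood vessel genes fell against Gpr161 KO. Of the 26 cardiomyocyte genes 17 fell and 0 rose, and the 6 cardiomyocyte markers summed to 1402 and 294 CPM in the 2 Gpr161 KO libraries. Myl2, a ventricular myosin light chain, was at 159 and 33.1 CPM in Gpr161 KO and 0.0942 and 0.0473 CPM in DKO. Of the 32 matrix genes 13 fell and 0 rose, and of the 21 endothelial genes 5 fell and 0 rose. Whether heart tissue in these 2 libraries bears on the other calls was not tested. With 1 of these 4 Head libraries left out in turn, 6 to 9 Hedgehog targets and 7 to 11 floor plate genes fell, with the fewest without Head DKO 2. In the same fits 9 to 17 cardiomyocyte, 5 to 8 matrix and 1 to 4 endothelial genes fell, and 6 to 8 dorsal, 2 to 4 intermediate, 3 to 6 FGF and 2 to 4 midbrain and hindbrain genes rose. Of all genes 320 passed without Head Gpr161 KO 1. The count was 322 without Head Gpr161 KO 2, 210 without Head DKO 1 and 264 without Head DKO 2. Pax6, Pax3, Gli1, Shh, Foxa2 and Foxl1 passed with any of these 4 libraries left out, and Ptch1 did not without Head DKO 2 (adjusted p = 0.0512).

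**Figure D5:**
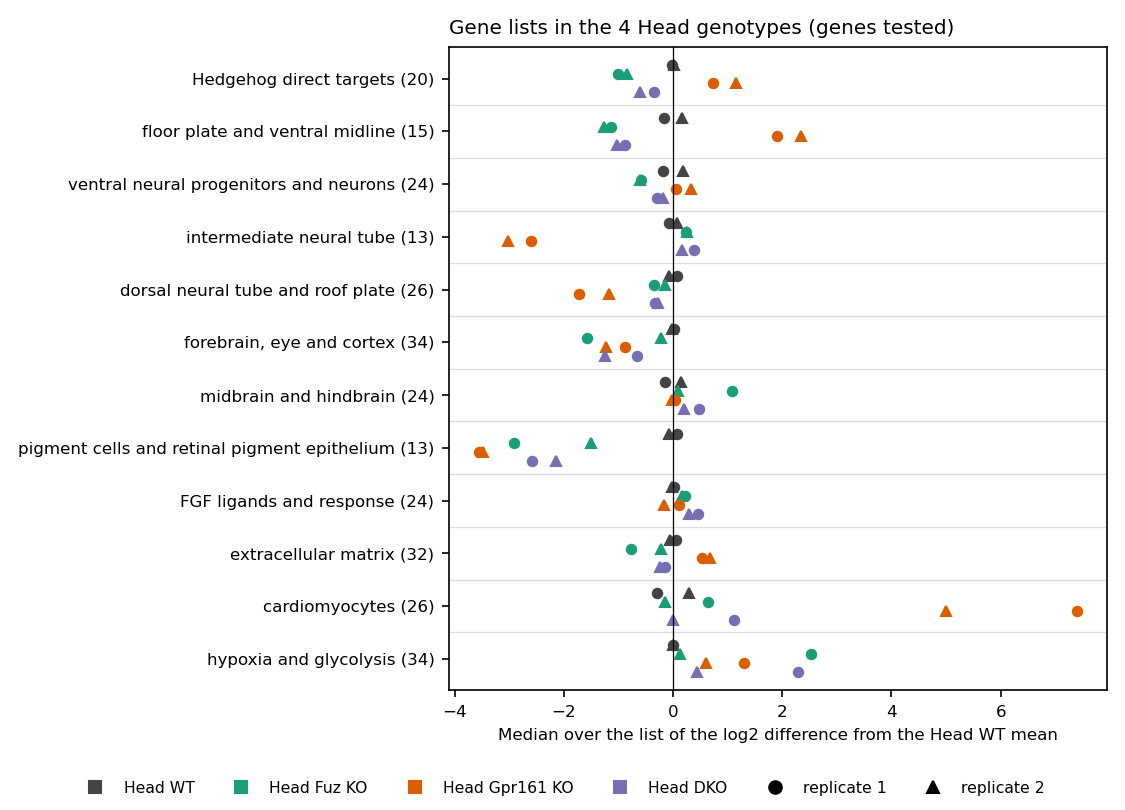
Median over 12 gene lists of the log2 difference from the Head WT mean in each of the 8 Head libraries, coloured by genotype, with circles for replicate 1 and triangles for replicate 2 and the number of genes tested in brackets. For Hedgehog targets and floor plate genes the DKO libraries lie below WT, on the side of Fuz KO, at -0.34 and -0.60 and at -0.89 and -1.03, with Gpr161 KO above WT.

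The effect of losing both genes was set against that in the Tail, the part behind the forelimbs, by testing Tail DKO against Tail WT minus the same difference in the Head. By edgeR 0 of the autosomal genes passed (0%), 675 reached an unadjusted p under 0.05 (3.28%, with 1.65% higher and 1.63% lower), and DESeq2 called 11. Replicates with the same number deviated together between Head and Tail in every genotype, and with the number as a block within genotype 18 genes passed, 4 higher and 14 lower. Foxl1, which fell in the Head, was at 3.30 and 3.66 CPM in Tail WT and 3.58 and 1.96 CPM in Tail DKO. The difference between the regions was 2.96 with the block (SE 0.33, adjusted p = 0.00557), against an adjusted p of 0.562 without it. Tgfb2, lower in the Head, was at 30.2 and 38.4 CPM in Tail WT and 39.9 and 33.5 CPM in Tail DKO (log2 1.29 ± 0.18 SE, adjusted p = 0.0175). Il17rd, higher in the Head, was at 99.4 and 98.2 CPM in Tail WT and 65.4 and 71.0 CPM in Tail DKO (log2 -1.17 ± 0.16 SE, adjusted p = 0.0175), and Spry2 at 25.5 and 23.9 against 17.6 and 16.5 CPM (log2 -1.11 ± 0.16 SE, adjusted p = 0.0175). Celsr1, a cadherin of planar cell polarity, was at 42.5 and 32.1 CPM in Tail DKO, 64.5 and 82.7 CPM in Tail WT, 81.8 and 77.8 CPM in Head DKO and 63.3 and 66.9 CPM in the WT Head (log2 -1.28 ± 0.14 SE, adjusted p = 0.00557). In the Tail the DKO libraries of Il17rd, Spry2 and Celsr1 lay below both WT libraries and in the Head above them. These calls rest on the block, and the labels do not say what the numbers share.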

How the data were processed

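The authors deposited raw counts of reads per gene for each library, per the file headers and values. Per the submitters' processing notes, which give no roles, the tools were STAR 2.7.1a, featureCounts 1.6.0, HTSeq, StringTie 2.0.4, Picard 2.20.4, Trimmomatic and FastQC, with the build GRCm39. Which of them counted, and on which strand, is not given in the sources used here. Of counts from 1 to 20, 66.89% to 76.37% were even. Whether both reads of a pair were counted is not stated, so counts may not be independent fragments, and p-values and CPM are those of the counts as deposited. Gene names, biotypes and GRCm38 coordinates came from GENCODE M21, which matched 54809 of 54838 identifiers. Counts of all 16 libraries were filtered by edgeR's filterByExpr, scaled by TMM and fitted with edgeR 4.0.16's quasi-likelihood model over the 8 groups, with Benjamini-Hochberg adjustment over the 21284 genes tested. Log CPM used a prior count of 2. DESeq2 1.42.0 was an alternative. The script was tested on simulated data. Head and Tail replicates of a number deviated together (r from 0.131 to 0.436). Members and lists were chosen with earlier results of these data known. Named genes were a fixed set of pathway genes, called genes other than numbered models and pseudogenes, and of each list the up to 4 members with the smallest p. Pseudogenes and other called transcripts with their matches, Emx2 and Nppa were named after their values were seen. Some items are not reported here.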

Additional observations from a re-analysis of the deposited data

How the results depend on the processing

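Head DKO against WT gave 7 calls. The count was 415 without the filter on low counts, 42 with only the groups compared, 13 with the replicate block, 12 without DKO 1 and Fuz KO 1 in both regions and 50 by DESeq2, and it ranged from 4 to 6 with 1 library left out. Rpl34-ps1, Gm9825, Atp6v0c-ps2 and Gm11942 passed with each of the 4 libraries left out. Against Fuz KO the 6 calls became 83 without the filter, 3 with only the groups compared, 13 by DESeq2, and 3 to 403 with 1 library left out. Against Gpr161 KO the 858 calls became 1714 without the filter, 563 with Head libraries only, 524 with sex as a term, 2326 without DKO 1 and Fuz KO 1, 1754 by DESeq2, and 210 to 322 with 1 library left out. For Tail minus Head, 0 calls became 141 without the filter, 4 with only the groups compared, 18 with the replicate block, 2 without DKO 1 and Fuz KO 1 and 11 by DESeq2. The labels do not say that a number pairs Head libraries of different genotypes, and same-numbered deviations correlated at -0.0809 for DKO with WT, 0.301 with Fuz KO and 0.0958 with Gpr161 KO. With the replicate block all 7 calls against WT passed, joined among others by Shh (adjusted p = 0.00109), Fuz (0.00743), Aldh1a1 (0.0204) and Dmrt3 (0.0398) by edgeR, and the counts against Fuz KO and Gpr161 KO were 8 and 1220. In the Head the direction turned for Ptch1 (-0.34 without DKO 1 and Fuz KO 1, and -0.34 to 0.41 with 1 library left out), Hhip (0.21 with sex, and -0.98 to 0.040 with 1 library left out), Pax3 (0.092 with sex, and -0.10 to 0.063 with 1 library left out), Pax6 (-0.055 without DKO 1 and Fuz KO 1, and -0.049 to 0.27 with 1 library left out) and Oc90 (1.14 with sex). It also turned for Foxl1 against Fuz KO (-0.24 to 0.18 with 1 library left out) and Gpr161 against Gpr161 KO (-0.28 to 0.35 with 1 library left out). The cause was not tested. Each library held at least 39062489 counts, and each group has 2 libraries.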
